A study of Mus musculus with 10 samples.

Results

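The laminin chain genes Lama1, Lama2, Lama3, Lama4, Lama5, Lamb1, Lamb2, Lamb3 and Lamc1 were examined in the cortical hem (CH) of wild-type and Lmx1a-/- mouse embryos. They are 9 of the 52227 genes in the count table and were chosen by symbol, with earlier results of these data known. Lamc3, a gamma chain gene outside this set, is given beside them because some laminin trimers contain it. RNA was sequenced from the CH of 5 wild-type (WT) and 5 Lmx1a-/- embryos at embryonic day 13.5, 1 library per embryo, with no treatment. The Lmx1a-/- embryos carried the dreherJ allele of Lmx1a (Lmx1a drJ), a spontaneous mutation that inactivates the protein but leaves the transcript in place. The study kept its mice on a mixed C57Bl6, FVB and CD1 background and used both sexes. The sex of these embryos, as read from their RNA, is given below. The CH was cut by laser capture from frozen sections of the whole head, and the sections of an embryo were pooled, so a library can hold vessels, meninges and other tissue that borders the CH. In such bulk samples, fewer cells of a type and less RNA per cell cannot be told apart.

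Laminins are the proteins on which basement membranes are built. Each is a trimer of an alpha, a beta and a gamma chain, joined in the endoplasmic reticulum. The trimer is named by the numbers of its chains. Once secreted, many laminins form a sheet that cells hold through integrins and dystroglycan. Nidogen, perlecan and agrin tie this sheet to a second sheet of collagen IV. In the developing forebrain, the basement membrane under the meninges anchors the endfeet of radial glia, and Cajal-Retzius (CR) cells, many of which arise in the CH, migrate just beneath it.

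The genes are spread over several chromosomes of GRCm38 (positions from GENCODE M21). Lamc1 (chr1:153218922-153332786) and Lamb3 (chr1:193207699-193343878) are both on chromosome 1. Lmx1a, the mutated gene, lies on the same chromosome (chr1:167689237-167848741). An effect of sequence linked to the mutant allele, in these mice of mixed background, was not tested. Lama2 (chr10:26980036-27619758) and Lama4 (chr10:38965515-39110188) are both on chromosome 10. Lama5 (chr2:180176373-180225859) and Lamc3 (chr2:31887291-31946539) share chromosome 2. Lama1 (chr17:67697259-67822647), Lamb1 (chr12:31265234-31329644) and Lamb2 (chr9:108479736-108490530) have no other chain gene on their chromosome. Genes on the opposite strand share exon sequence with Lama2 (631 of 16338 bases), Lama3 (197 of 10745 bases) and Lamc3 (382 of 6091 bases). The strand setting of the counting was not stated, so reads in those stretches cannot be assigned with certainty.

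The promoters of Lamb1 and Lamb2 are shown because these beta chains can replace each other in a trimer. Lamb1 passed the test for genotype given below and Lamb2 did not. That is no test of a difference between the 2 genes, and their ratio did not pass its own (adjusted p = 0.167 in an exact permutation test). RefSeq promoter windows (GRCm38.p6, from 250 bases before to 50 bases after the start) were at hand for 5 of the 9 genes, namely Lama2, Lama5, Lamb1, Lamb2 and Lamb3. Below are the parts of the Lamb1 and Lamb2 windows that precede the GENCODE gene start, on the plus strand, with the GC box GGGCGG or its reverse complement CCGCCC in capitals:
Lamb1 (chr12:31265043-31265233): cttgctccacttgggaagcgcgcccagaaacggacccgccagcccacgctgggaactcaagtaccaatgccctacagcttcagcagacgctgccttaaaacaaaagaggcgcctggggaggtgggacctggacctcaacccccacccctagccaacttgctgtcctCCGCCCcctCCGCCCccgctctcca
Lamb2 (chr9:108479612-108479735): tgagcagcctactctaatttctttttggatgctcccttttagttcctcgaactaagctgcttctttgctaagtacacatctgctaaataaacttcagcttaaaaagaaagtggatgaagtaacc
The Lamb1 window held 2 GC boxes and 63.7% G and C, the Lamb2 window no GC box and 44.0%, beside a median of 52.7% over all 32851 windows. The windows of Lamb3, the third beta chain gene, lie past its GENCODE gene start and held no GC box and 59.3% G and C. GC boxes occurred in 35.7% of all windows, and in those of Lama2, Lama5 and Lamb1. The homeodomain core TAATTA, found in 5.29% of all windows on either strand, the TCF/LEF motif CTTTGAT, found in 3.73%, and the TATA box TATAAA, found in 13.6%, were in none of the laminin windows. A match of letters is a description of the window and not a binding site.

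Library totals lay between 19145952 and 36462780 counts, and mitochondrial genes took 20.6% to 27.6% of them. Lmx1a itself was transcribed in every library, at 45.6 to 90.8 normalized CPM (counts scaled to library size) in wild type and 89.9 to 145 in Lmx1a-/-, so it does not check the genotype labels. The summed level of 8 CH markers (Wnt3a, Wnt2b, Wnt8b and others, Lmx1a included) was 1169 to 2014 normalized CPM in wild type. In Lmx1a-/- it was 1402 to 1677, so these markers were expressed in every library. Wnt8b held the largest part, with a mean of 851 in wild type and 920 in Lmx1a-/-. No tissue from outside the CH is among these libraries, so the sum does not show how pure the samples were. The markers were not unchanged: in the test given below, Msx1, Wnt2b and Wnt5a were lower in Lmx1a-/- (log2 fold changes -2.11, -1.02 and -0.41). Lmx1a was higher there (0.68), and the other markers of the 8 did not pass. Xist, the RNA of the inactive X chromosome, was at 4399 to 5169 normalized CPM in wild-type embryos 2 to 5 and at 0.163 to 1.15 in wild-type embryo 1 and all Lmx1a-/- embryos. Ddx3y, a gene of the Y chromosome, was at 72.5 to 84.3 normalized CPM in Lmx1a-/- embryos and at 65.6 in wild-type embryo 1. In wild-type embryos 2 to 5 Ddx3y was at 0 to 0.0588. By these genes all Lmx1a-/- embryos and wild-type embryo 1 were male, and wild-type embryos 2 to 5 female. Sex and genotype therefore cannot be told apart in these libraries, except through wild-type embryo 1. Wild-type embryo 4 stood apart in epidermal genes. The summed level of 10 epidermal markers was 1759 normalized CPM there, 56.4 to 231 in the other wild-type libraries, and 10.7 to 159 in the Lmx1a-/- libraries. Results that rest on these embryos are given with and without them.

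Of the 9 laminin chain genes, 3 were lower in Lmx1a-/- CH (Lama1, Lamb1 and Lamc1) and none was higher, with an FDR under 0.1 in edgeR's quasi-likelihood test over all 21664 genes tested. The share of all tested genes that passed in the lower direction was 2.29% (4.02% in either direction), against 33.3% of the laminin chains. The chains were chosen with earlier results of these data known, so the 2 shares are a description and no test of the set. The same 3 genes had every wild-type library above every Lmx1a-/- library, which 2.27% of all tested genes had. The 6 other chains did not pass, and all 9 had a log2 fold change under 0, as 50.6% of all tested genes had. The median log2 fold change of the 9 genes was -0.63, and that of all tested genes was -0.00494. Summed over the 9 genes, the level was 390 to 524 normalized CPM in wild type and 266 to 343 in Lmx1a-/-, with no overlap.

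Lamc1 encodes the gamma1 chain, shared by most laminins, and had the smallest p of the chain genes. It was at 182, 195, 154, 210.0 and 168 normalized CPM in wild-type embryos 1 to 5. In Lmx1a-/- embryos 1 to 5 it was at 108, 124, 137, 132 and 120.2 normalized CPM. The lowest wild-type library, embryo 3, was above the highest Lmx1a-/- library, also embryo 3. The log2 fold change was -0.55 ± 0.094 (SE), with an FDR of 0.0084 in edgeR's quasi-likelihood test. The mean per kb of exon (all exons of the gene merged) was 22.0 ± 2.68 (SD, n = 5) normalized CPM in wild type and 15.0 ± 1.33 (SD, n = 5) in Lmx1a-/-.

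Lamb1 encodes the beta1 chain, the partner of gamma1 in laminins of early embryos. It was at 86.7, 66.4, 73.5, 111 and 67.3 normalized CPM in wild-type embryos 1 to 5. The values in Lmx1a-/- embryos 1 to 5 were 54.0, 46.1, 51.4, 36.0 and 45.3 normalized CPM. Wild-type embryo 4 was the highest and Lmx1a-/- embryo 4 the lowest, and the genotypes did not overlap. Its log2 fold change was -0.80 ± 0.15 (SE), with an FDR of 0.0136 in edgeR's quasi-likelihood test.

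Lama1 encodes the alpha1 chain of laminin 111, a laminin of neuroepithelial and other early basement membranes. It was at 52.4, 38.6, 35.9, 35.4 and 46.8 normalized CPM in wild-type embryos 1 to 5. In Lmx1a-/- embryos 1 to 5 it was at 28.9, 24.8, 32.9, 22.2 and 26.6 normalized CPM. Wild-type embryo 4, high for Lamb1 and Lamc1, was the lowest wild-type library for Lama1, and still above Lmx1a-/- embryo 3. The log2 fold change was -0.63 ± 0.14 (SE), with an FDR of 0.0329 in edgeR's quasi-likelihood test. Lama1, Lamb1 and Lamc1, the chains of laminin 111, were thus the genes that passed among the 9. Lamc3, outside the 9, also passed, as given below. Lamb1 and Lamc1 are chains of laminins 211, 411 and 511 as well.

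**Figure D1:**
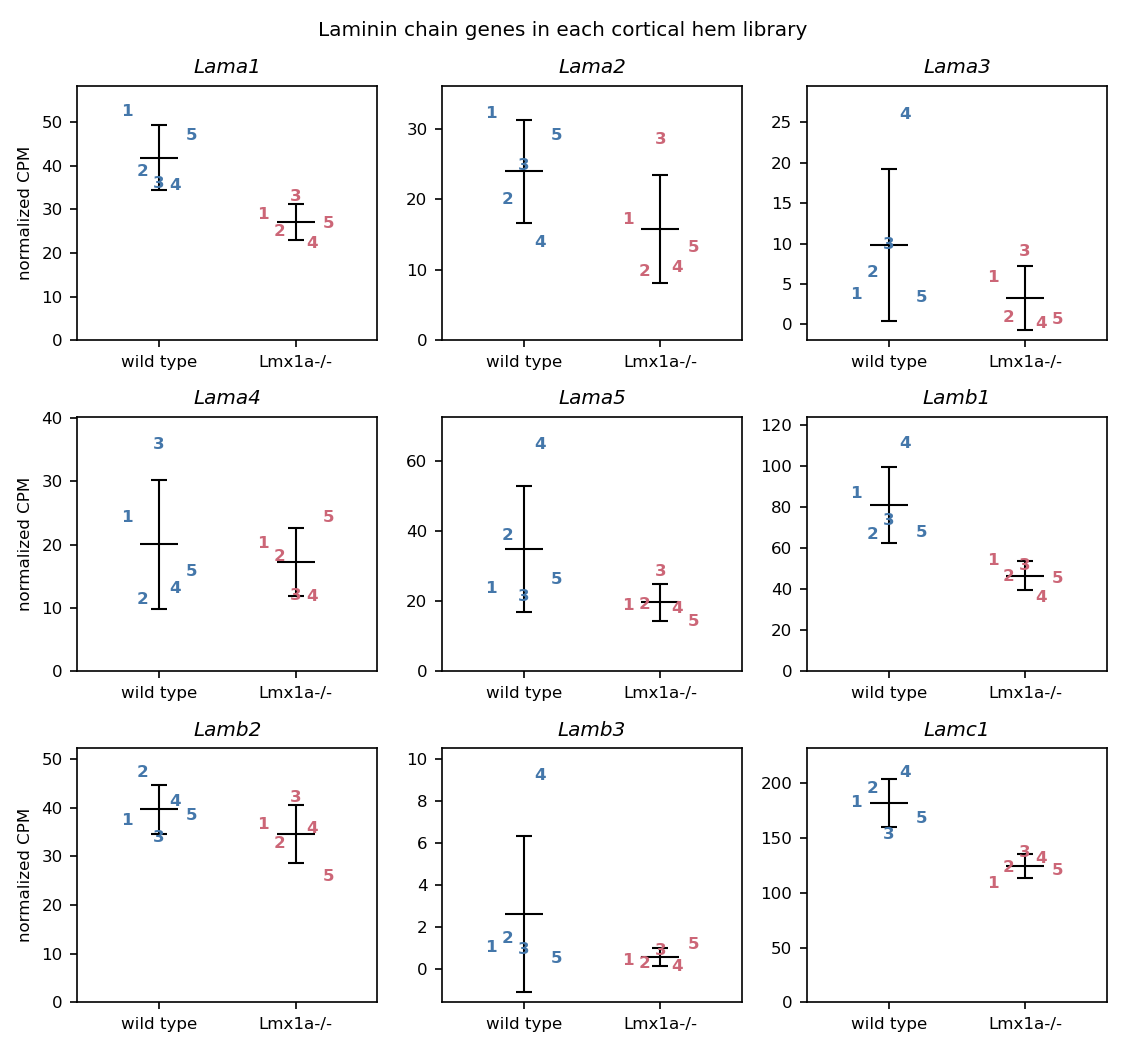
Normalized CPM (linear axes) of the 9 laminin chain genes in wild-type (blue) and Lmx1a-/- (red) libraries. Each digit is the embryo number placed at its value, and the black bars are the mean ± SD of 5 embryos, which runs below 0 for Lama3 and Lamb3. Lama1, Lamb1 and Lamc1 have no overlap between genotypes, and wild-type embryo 4 is far above the others for Lamb3 and Lama3.

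The 3 genes passed in each of the 10 fits that left out 1 embryo. Without wild-type embryo 4, their log2 fold changes were -0.68 for Lama1, -0.66 for Lamb1 and -0.50 for Lamc1. With Xist as a covariate the log2 fold changes were -0.93 for Lama1, -0.89 for Lamb1 and -0.55 for Lamc1, and none passed (FDR 0.173, 0.291 and 0.327 in edgeR's quasi-likelihood test). Wild-type embryo 1, the wild-type library without Xist, was above every Lmx1a-/- library for each of the 3 genes. Set alone against the 5 Lmx1a-/- embryos, it gave log2 fold changes of -0.96, -0.90 and -0.56 in the same order. This compares 1 library with 5 and takes its spread from the Lmx1a-/- embryos, so no test of genotype is drawn from it.

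Cell type markers moved with genotype beside these genes. The summed level of 10 choroid plexus epithelium markers, led by Ttr, was 34.6 to 288 normalized CPM in wild type and 31.7 to 66 in Lmx1a-/-, with Kl, Kcne2 and Cldn2 at 0 in at least 1 library. Of the 8 tested, 2 passed (Ttr and Slc4a5), both lower. The covariates for cell types were not these sums but, in each library, the mean log2 normalized CPM of the tested genes of a list. With the choroid plexus mean as a covariate the log2 fold changes were -0.33 for Lama1, -0.87 for Lamb1 and -0.46 for Lamc1. None of the 3 passed (FDR 0.629, 0.232 and 0.364 in edgeR's quasi-likelihood test). With the epidermal mean as a covariate the log2 fold changes were -0.59, -0.50 and -0.47, none of which passed (FDR 0.262, 0.303 and 0.168). Only 45 genes over the whole table passed with the choroid plexus covariate and 176 with the epidermal covariate, against 870 without. The summed level of 9 radial glia and neuroepithelium markers was 1775 to 2703 normalized CPM in wild type and 3010 to 3829 in Lmx1a-/-, with no overlap, and 2 of the 9 passed (Vim and Emx2), both higher. The sum of 8 CR cell markers was 351 to 564 in wild type and 249 to 374 in Lmx1a-/-, with 3 genes lower (Reln, Trp73 and Lhx1) and Lhx5 higher. Sums of pericyte markers (111 to 146 and 91.4 to 138), neuronal markers (731 to 1131 and 820 to 1270) and microglial markers (13.6 to 26.7 and 14.3 to 30.9) overlapped, and none of their genes passed. The part of these cell types in the lower laminin levels was not tested beyond the covariate fits.

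The other alpha chains did not pass the test. Lama5 encodes the alpha5 chain of laminins 511 and 521, which are widespread in epithelial and vascular basement membranes. It was at 23.7, 38.7, 21.4, 64.7 and 26.2 normalized CPM in wild-type embryos 1 to 5. The values in Lmx1a-/- embryos 1 to 5 were 18.8, 19.2, 28.4, 17.9 and 14.3 normalized CPM. The genotypes overlapped through Lmx1a-/- embryo 3, and wild-type embryo 4 was the highest. The log2 fold change was -0.82 ± 0.28 (SE), with an FDR of 0.162 in edgeR's quasi-likelihood test. Without wild-type embryo 4 it was -0.48.

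Lama2 encodes the alpha2 chain of the laminins of muscle and, in brain, of vessels and meninges. It lay at 13.9 to 32.2 normalized CPM in wild type and at 9.78 to 28.5 in Lmx1a-/-. Lmx1a-/- embryo 3 was above 3 of the 5 wild-type libraries. Its log2 fold change was -0.60 ± 0.29 (SE), with an FDR of 0.327 in edgeR's quasi-likelihood test. It was -0.93 without Lmx1a-/- embryo 3, with an FDR of 0.0715.

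Lama4 encodes the alpha4 chain, a short chain found around blood vessels. It was at 24.3, 11.4, 35.9, 13.0 and 15.8 normalized CPM in wild-type embryos 1 to 5. In Lmx1a-/- embryos 1 to 5 it was at 20.2, 18.2, 12.1, 11.9 and 24.2 normalized CPM. The ranges overlapped almost whole, and the log2 fold change was -0.22 ± 0.30 (SE) with an FDR of 0.777 in edgeR's quasi-likelihood test. Its sign turned to 0.10 without wild-type embryo 3. The libraries with most Lama4 were also high in 10 endothelial markers (Pecam1, Cdh5 and others), whose sum was 97.1 in wild-type embryo 1, 82.5 in wild-type embryo 3 and 68 in Lmx1a-/- embryo 5, against 26.3 in wild-type embryo 4 and 24.9 in Lmx1a-/- embryo 4. The match was partial. Wild-type embryos 2 and 5 and Lmx1a-/- embryo 3 had sums of 43.2, 63.2 and 52.6, with Lama4 at 11.4, 15.8 and 12.1. Lmx1a-/- embryos 1 and 2 had sums of 55.4 and 57.6, with Lama4 at 20.2 and 18.2. No endothelial marker passed the test for genotype. With the endothelial mean (of log2 levels) as a covariate the log2 fold change of Lama4 was 0.10.

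Lamb2 encodes the beta2 chain, which takes the place of beta1 in laminins 121, 221, 421 and 521. It was at 37.4, 47.3, 33.9, 41.2 and 38.3 normalized CPM in wild-type embryos 1 to 5. The values in Lmx1a-/- embryos 1 to 5 were 36.6, 32.6, 42.2, 35.6 and 25.8 normalized CPM. It had the smallest spread among wild-type embryos relative to its level after Lamc1, and its genotypes overlapped. Its log2 fold change was -0.20 ± 0.13 (SE), with an FDR of 0.496 in edgeR's quasi-likelihood test.

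Lama3 and Lamb3 encode the alpha3 and beta3 chains, which are known from the basement membrane of the epidermis and other stratified epithelia. Lama3 was at 3.73, 6.40, 9.91, 26.0 and 3.29 normalized CPM in wild-type embryos 1 to 5. The values in Lmx1a-/- embryos 1 to 5 were 5.85, 0.87, 9.06, 0.111 and 0.626 normalized CPM. The genotypes overlapped, and the lowest Lmx1a-/- library held 4 reads. Lamb3 was at 1.01, 1.44, 0.941, 9.24 and 0.517 normalized CPM in wild-type embryos 1 to 5. In Lmx1a-/- embryos 1 to 5 Lamb3 was at 0.399, 0.272, 0.886, 0.138 and 1.18 normalized CPM. Wild-type embryo 4 was thus the highest library for both genes.

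The log2 fold changes were -1.56 ± 0.87 (SE) for Lama3 and -2.16 ± 0.80 (SE) for Lamb3, with an FDR of 0.4 and 0.193 in edgeR's quasi-likelihood test. Without wild-type embryo 4 they were -0.82 and -0.76. The epidermal keratin Krt5 was at 378 normalized CPM in wild-type embryo 4 and at 11.2 to 43.4 in the other wild-type libraries. It was at 0 in Lmx1a-/- embryos 2 and 4, and at 14.1, 30.1 and 1.32 in Lmx1a-/- embryos 1, 3 and 5. Lmx1a-/- embryos 2 and 4 were also the lowest libraries for Lamb3. Lmx1a-/- embryo 5, low in Krt5, had the highest Lamb3 of the Lmx1a-/- libraries (1.18), above wild-type embryos 1, 3 and 5. With the epidermal mean (of log2 levels) as a covariate the log2 fold change was 0.30 for Lama3 and 0.30 for Lamb3. Itgb4, the beta subunit of the laminin-binding integrin of hemidesmosomes, was at 36.8 normalized CPM in wild-type embryo 4 and at 1.47 to 9.68 in the other 9 libraries.

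**Figure D2:**
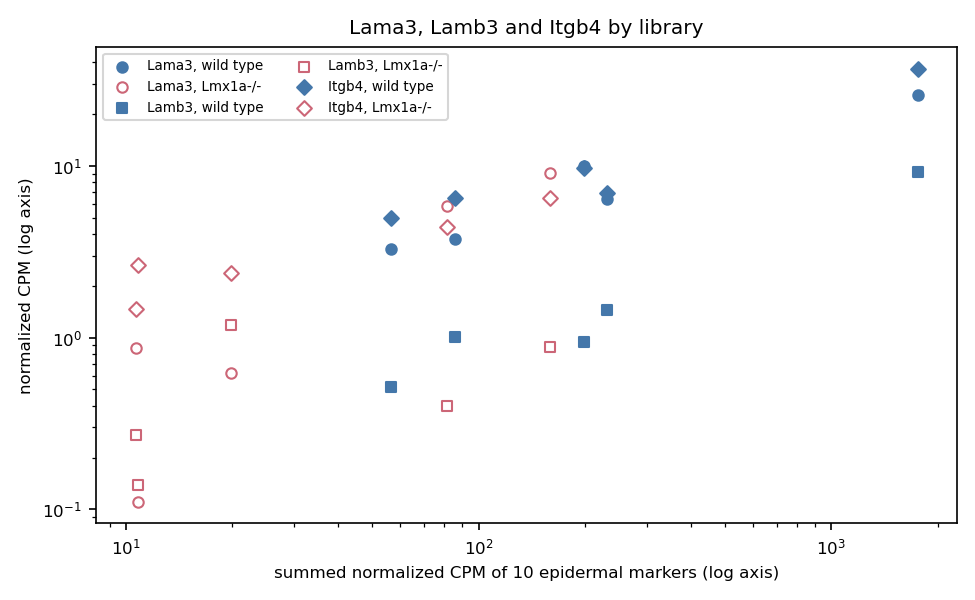
Normalized CPM of Lama3, Lamb3 and Itgb4 (log axis) against the summed normalized CPM of 10 epidermal markers (log axis), 1 point per gene and library, filled for wild type and open for Lmx1a-/-. Wild-type embryo 4, at 1759 on the horizontal axis, has the highest value of each gene. Lmx1a-/- embryos 2 and 4, at 10.7 and 10.8, are at the low end. Lmx1a-/- embryo 5, at 19.9, has the highest Lamb3 of the Lmx1a-/- libraries.

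Lamc3, the gamma3 chain gene, passed the test with lower levels in Lmx1a-/-. It was at 9.03, 3.47, 1.91, 3.58 and 5.87 normalized CPM in wild-type embryos 1 to 5. The values in Lmx1a-/- embryos 1 to 5 were 1.46, 0.978, 1.84, 2.13 and 1.67 normalized CPM. Lmx1a-/- embryo 4 was above wild-type embryo 3, so the genotypes overlapped. Its log2 fold change was -1.55 ± 0.38 (SE), with an FDR of 0.056 in edgeR's quasi-likelihood test. The call was lost without wild-type embryo 1, which had the highest level (log2 fold change -1.19, FDR 0.138), and also without wild-type embryo 5 (FDR 0.101), Lmx1a-/- embryo 2 (FDR 0.122) or Lmx1a-/- embryo 5 (FDR 0.114). The call was also lost with the choroid plexus mean as a covariate, where the log2 fold change was -0.51 (FDR 0.84). With Xist (-2.42, FDR 0.13) or the epidermal mean (-1.77, FDR 0.181) as a covariate the call was lost too.

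Chains are compared with each other per kb of exon, since longer transcripts give more reads. In wild type the order of mean level in normalized CPM per kb was Lamc1 (22.0 ± 2.68, SD, n = 5), Lamb1 (8.16 ± 1.87), Lamb2 (6.52 ± 0.825), Lama1 (4.32 ± 0.771), Lama5 (3.07 ± 1.58), Lama4 (1.66 ± 0.841), Lama2 (1.47 ± 0.447), Lama3 (0.918 ± 0.874), Lamc3 (0.784 ± 0.455) and Lamb3 (0.398 ± 0.561). The wild-type ranges of neighbors in this order were apart between Lamc1 and Lamb1 and between Lamb2 and Lama1. All other neighbors overlapped per kb of exon, so by that length their order is not resolved by these embryos. By the longest transcript the wild-type ranges of Lamb1 and Lamb2 were apart, so their overlap depends on the length used. In Lmx1a-/- the order was the same except that Lamb2 (5.68 ± 0.985) stood above Lamb1 (4.70 ± 0.699). With the length of the longest transcript in place of all exons, Lamb1 stayed above Lamb2 in both genotypes (14.0 ± 3.21 and 7.04 ± 0.891 in wild type, 8.05 ± 1.20 and 6.14 ± 1.06 in Lmx1a-/-), and Lama4 stood above Lama5 at 3.32 ± 1.68 and 3.07 ± 1.58 in wild type. By that length Lama4 and Lama1 were level in Lmx1a-/-, at 2.86 ± 0.885 and 2.84 ± 0.428, so the leading alpha chain there depends on the length used.

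Within each class of chain, shares of the summed level per kb of exon show the makeup of the pool. Lama1 made up 38.3% ± 8.21 (SD, n = 5) of the alpha chain level in wild type and 39.0% ± 2.25 (SD, n = 5) in Lmx1a-/-. Lama5 followed with 26.3% ± 10.8 in wild type and 24.1% ± 4.32 in Lmx1a-/-. Lama4 took 14.7% ± 7.73 in wild type and 20.5% ± 6.90 in Lmx1a-/-, Lama2 took 13.1% ± 4.38 and 12.8% ± 3.42, and Lama3 took 7.56% ± 6.10 and 3.62% ± 3.99. These differences between genotypes were within the spread of the embryos. Among beta chains, Lamb1 made up 53.9% ± 5.34 in wild type and 45.0% ± 4.86 in Lmx1a-/-, and Lamb2 43.8% ± 6.84 and 54.2% ± 5.35. The Lamb1 share was 45.6% in wild-type embryo 2 and 50.8% in Lmx1a-/- embryo 5, so the genotypes overlapped. By the longest transcript Lama4 took 23.0% ± 10.3 in wild type and 31.1% ± 9.44 in Lmx1a-/-, beside 31.2% ± 6.25 and 30.5% ± 1.79 for Lama1. By that length Lamb1 was the larger beta chain in both genotypes, with 64.6% ± 4.85 and 56.3% ± 4.80 against 33.3% ± 6.08 and 42.9% ± 5.25 for Lamb2. Lamc1 was at least 93.7% of the summed level of Lamc1 and Lamc3 in every library.

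**Figure D3:**
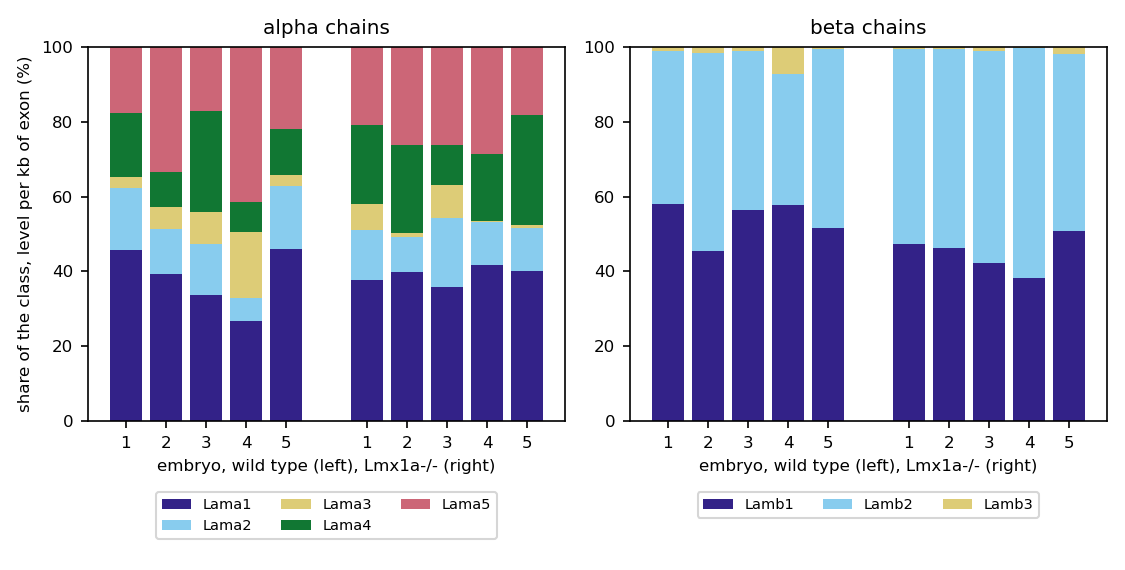
Share of each alpha chain (left) and beta chain (right) in the summed normalized CPM per kb of exon of its class, in percent, 1 stacked bar per embryo, with wild type in the left 5 bars and Lmx1a-/- in the right 5. Lama1 holds 26.7% to 45.9% of the alpha level, and Lama3 and Lamb3 are widest in wild-type embryo 4.

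Ratios of chains within a library do not depend on scaling between libraries. They were tested for the 6 chains with at least 10 counts in every library against Lamc1, and for Lamb2 against Lamb1, with an exact two-sided permutation test over embryos and Benjamini-Hochberg adjustment over the 7 ratios. No ratio passed an adjusted p of 0.05. With 5 embryos against 5 the smallest exact p is 0.00794, and a single ratio at that value would have an adjusted p of 0.0556. The 2 smallest exact p-values were those that involve Lamb2. Per kb of exon, Lamb2 over Lamc1 was 0.267 to 0.329 in wild type and 0.292 to 0.459 in Lmx1a-/-, a log2 difference of 0.34 (exact p = 0.0317, adjusted p = 0.167). Lamb2 over Lamb1 was 0.606 to 1.16 in wild type and 0.929 to 1.61 in Lmx1a-/-, a log2 difference of 0.58 (exact p = 0.0476, adjusted p = 0.167). Lama1 over Lamc1 was 0.144 to 0.245 in wild type and 0.144 to 0.227 in Lmx1a-/-, a log2 difference of -0.08 (exact p = 0.659, adjusted p = 0.762). Lamb1 over Lamc1 was 0.283 to 0.440 in wild type and 0.228 to 0.415 in Lmx1a-/-, a log2 difference of -0.24 (exact p = 0.238, adjusted p = 0.556). The remaining ratios to Lamc1 differed by -0.11 for Lama2, 0.41 for Lama4 and -0.19 for Lama5 on the log2 scale, with adjusted exact p-values of 0.762, 0.681 and 0.756.

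**Figure D4:**
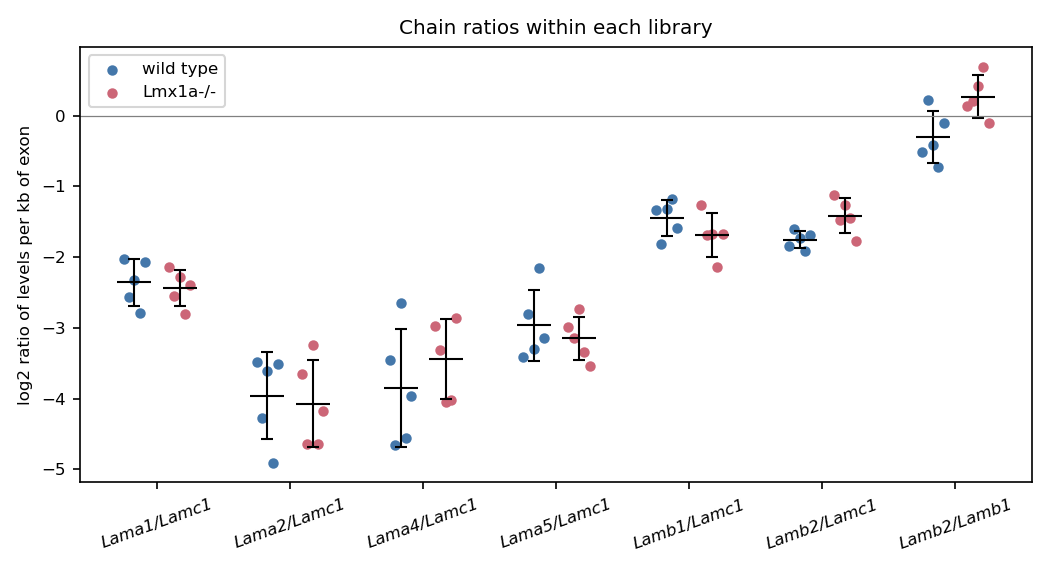
Log2 ratio of levels per kb of exon between chains of the same library, 1 point per embryo (wild type blue, Lmx1a-/- red), with black bars for the mean ± SD of 5 embryos. Lama1/Lamc1 lies at a mean of -2.36 in wild type and -2.43 in Lmx1a-/-, and Lamb2/Lamb1 at -0.31 and 0.27.

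The levels allow 11 of the 13 trimers considered, in the sense that each chain had at least 10 counts in all 10 libraries. RNA levels do not show that a trimer was assembled, nor that its chains were made in the same cell. Of these, 8 use gamma1, namely laminins 111, 121, 211, 221, 411, 421, 511 and 521, and 3 use gamma3, namely laminins 213, 423 and 523. The other 2, laminins 311 and 321, need Lama3, which had 4 counts in Lmx1a-/- embryo 4 and 89 to 501 counts in wild type. By the same rule the wild-type libraries alone allow these 2 as well. Lamc3, which the gamma3 trimers need, was at 18 counts in Lmx1a-/- embryo 2. In each of the 8 gamma1 trimers the alpha chain was the scarcest chain per kb in 10 of 10 libraries. The summed alpha level was below the summed beta level, and that below the sum of Lamc1 and Lamc3, in 10 of 10 libraries per kb of exon and in 8 of 10 by the longest transcript. Lamc1 alone was at 1.66 to 2.90 times the summed alpha level.

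By that measure the scarcest chain of laminins 111 and 121 was Lama1, at 3.66 to 5.41 normalized CPM per kb in wild type and 2.29 to 3.40 in Lmx1a-/-, with no overlap. For laminins 511 and 521 it was Lama5, at 1.88 to 5.68 and 1.26 to 2.49. For laminins 411 and 421 it was Lama4, at 0.942 to 2.98 and 0.984 to 2.01, and for laminins 211 and 221 it was Lama2, at 0.848 to 1.97 and 0.599 to 1.75. In the 3 gamma3 trimers Lamc3 was the scarcest, at 0.314 to 1.48 and 0.161 to 0.350. Of these alpha chains, Lama1 is the one that passed the test for genotype. The order of the trimers by their scarcest chain is not resolved, since the wild-type ranges of Lama1 and Lama5 overlapped and, by the longest transcript, Lama4 and Lama1 were level in Lmx1a-/-.

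The partners of laminins in the basement membrane changed in part. Of 11 network and linker genes, Col4a1 and Col4a2 fell and the other 9 did not pass, with a median log2 fold change of -0.21 over the 11. Col4a1 and Col4a2 encode the chains of the main collagen IV and lie head to head on chromosome 8. Col4a1 was at 69.8 to 133 normalized CPM in wild type and 27.7 to 59.1 in Lmx1a-/-, with no overlap and a log2 fold change of -0.97 ± 0.20 (SE, FDR 0.0253 in edgeR's quasi-likelihood test). Col4a2 was at 50.2 to 86.5 in wild type and 16.3 to 45.7 in Lmx1a-/-, with a log2 fold change of -0.94 ± 0.23 (SE, FDR 0.0514). The call of Col4a2 was lost without wild-type embryo 1 (FDR 0.128) or Lmx1a-/- embryo 2 (FDR 0.11). Neither collagen gene passed with the choroid plexus mean (FDR 0.446 for Col4a1 and 0.553 for Col4a2) or the epidermal mean (FDR 0.185 and 0.347) as a covariate. With Xist as a covariate Col4a1 passed (FDR 0.0984) and Col4a2 did not (FDR 0.212). Nid1 and Nid2, which encode nidogens, Hspg2, which encodes perlecan, and Agrn, which encodes agrin, had log2 fold changes of -0.31, 0.16, -0.43 and 0.20. The collagens Col1a1 and Col3a1 of the meninges list had log2 fold changes of -0.60 each (FDR 0.464 and 0.332), and 3 of the 11 genes of that list passed, all lower in Lmx1a-/- (Pdgfra, Lum and Dcn). The meninges sum was 337 to 951 normalized CPM in wild type and 264 to 525 in Lmx1a-/-. With the meninges mean (of log2 levels) as a covariate, the same count of 3 laminin chain genes passed.

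Of 10 laminin receptor genes 9 were tested, and Itga6 fell. Itga6, the alpha6 integrin subunit, was at 102 to 149 normalized CPM in wild type and 92.0 to 112 in Lmx1a-/-, with a log2 fold change of -0.38 ± 0.10 (SE, FDR 0.0744 in edgeR's quasi-likelihood test). That call was lost in 7 of the 10 fits without 1 embryo and with Xist, the choroid plexus mean or the epidermal mean as a covariate. Itgb1, the beta1 subunit shared by most laminin-binding integrins, and Dag1, dystroglycan, had log2 fold changes of -0.20 (FDR 0.124) and -0.29 (FDR 0.11). Of 8 genes for chain folding and secretion, Calr, a chaperone of the endoplasmic reticulum, passed with a log2 fold change of -0.49 ± 0.14 (SE, FDR 0.0866), a call also lost with each of those covariates and in 6 of the 10 fits without 1 embryo. P4hb, Hspa5 and Hsp90b1, other chaperones there, had log2 fold changes of -0.15, 0.05 and 0.01. The medians were -0.29 for the receptors and -0.06 for folding and secretion.

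**Figure D5:**
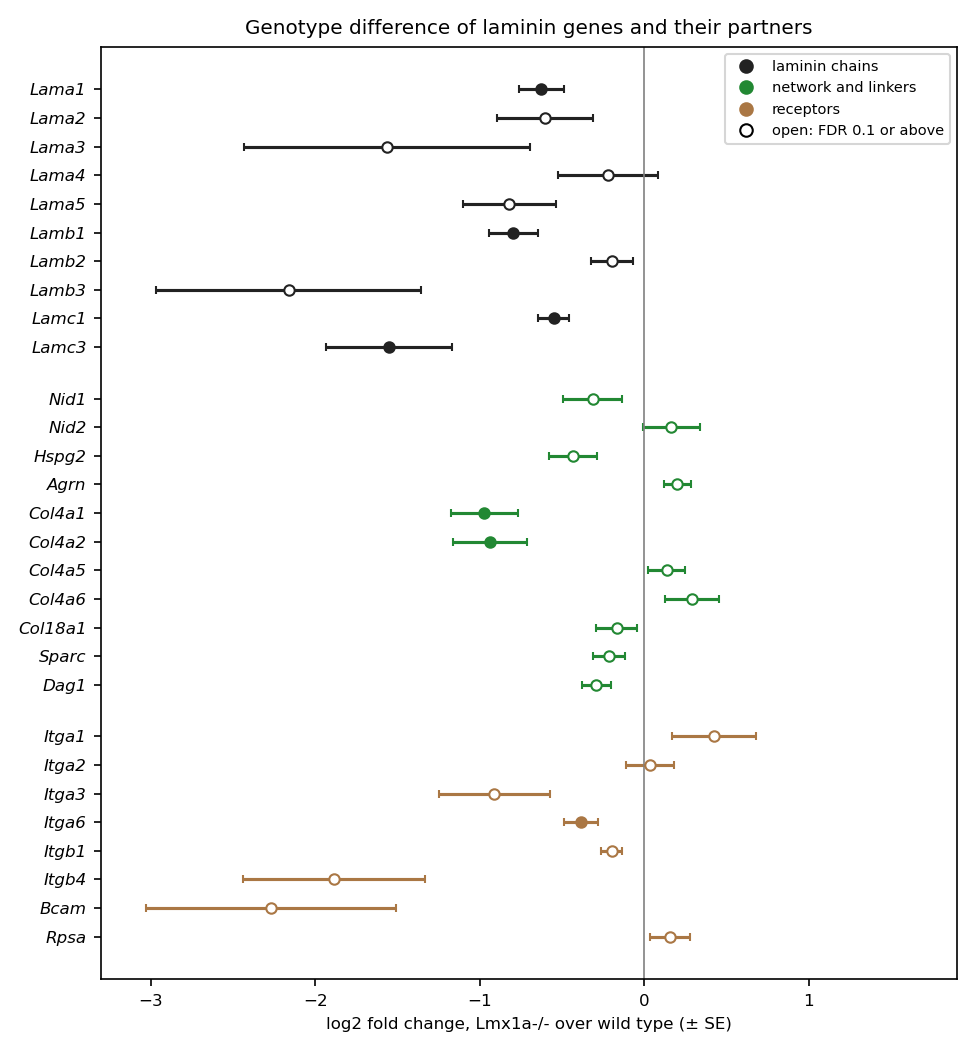
Log2 fold change of Lmx1a-/- over wild type ± SE (edgeR's quasi-likelihood fit of 10 libraries) for the laminin chain genes (black), network and linker genes (green) and receptors (brown). Filled points have an FDR under 0.1. All 10 laminin genes lie left of 0, and Col4a1 and Col4a2 lie at -0.97 and -0.94 while Nid2, Agrn, Col4a5 and Col4a6 lie right of 0.

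The genes whose pattern over the 10 libraries was most like that of Lamc1, by the mean absolute difference of log2 CPM after centring each gene, were Erfe (0.0876), Pigc (0.0885), Id2 (0.0936), Ajuba (0.0959) and Ppfibp1 (0.0959). For Lamb1 they were Tor3a (0.0993), Myh9 (0.101), Tanc1 (0.122), Tpm1 (0.134) and Fam129b (0.135). Myh9 encodes nonmuscle myosin heavy chain and Tpm1 encodes a tropomyosin. Among the 21663 genes compared, Lama1 stood at rank 81 and Lamc1 at rank 206 in likeness to Lamb1, at 0.205 and 0.231. Lamb2 stood at rank 3026, Lama2 at 4426 and Lama3 at 21409. In likeness to Lamc1 the nearest chain gene was Lamb2 at rank 803 (0.208), ahead of Lama1 at rank 1307 (0.225) and Lamb1 at rank 1536 (0.231). These libraries share the genotype difference, so any gene with a like genotype difference and small spread comes near.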

How the data were processed

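The authors aligned paired-end reads from laser-captured CH to GRCm38 with STAR 2.7.1a and counted reads per gene with HTSeq 0.11.2. The deposited values are these raw counts, and the strand setting was not stated in the sources used here. Repeated rows (281 of 52508) were dropped. Genes that reached 10 counts in 3 or more libraries entered edgeR 4.0.16 in R 4.3.3 (TMM scaling, quasi-likelihood test, 5 wild-type against 5 Lmx1a-/- libraries, no covariate), with a Benjamini-Hochberg FDR under 0.1 as the threshold. Normalized CPM are TMM-scaled counts, and SE is the log2 fold change divided by the square root of F. Levels per kb use the merged exons of GENCODE M21. Ratios of chains were compared with exact permutation tests (scipy 1.17.1). DESeq2 1.42.0, other scalings, filters, covariates and leaving out each embryo were alternatives. The script was tested on simulated data. The rule for named genes took the chain genes, members of partner lists that passed, marker lists, Xist, Y-linked genes and Lmx1a. The rule took the 5 genes most like Lamc1 and Lamb1 as well. It also took a further gene, which is not reported here. Partner genes named without passing were chosen after their values were seen. Members and lists were chosen with earlier results of these data known, and the epidermal list after levels of single genes were seen.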

Additional observations from a re-analysis of the deposited data

Results flagged for a closer look

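In 1 of the 34 groups of 5 embryos examined (10 genes and 7 chain ratios in 2 genotypes), a library stood far from the other 4, by a gap of more than 0.71 of the group's range. This was wild-type embryo 4, where Lamb3 was at 9.24 normalized CPM, against 0.517 to 1.44 in the other wild-type embryos. Chance alone marks about 1 in 20 groups. The 10 epidermal markers were highest in the same library, and their part in this value was not tested further.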

How the results depend on the processing

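Lama1, Lamb1 and Lamc1 kept their direction under every alternative run. The number of laminin chain genes past the threshold was 3 of 9, and 3 to 5 when 1 embryo was left out, with 5 without Lmx1a-/- embryo 3. It was 5 with the likelihood ratio test and 5 with DESeq2 (the further genes were Lama5 and Lamb3). It was 0 with Xist, choroid plexus or epidermal level as a covariate and 0 in the 6 libraries without Xist, where edgeR's quasi-likelihood test left 3, 2, 3 and 4 of them at an unadjusted p under 0.05. The 6 libraries hold 1 wild-type library, whose spread was taken from the Lmx1a-/- embryos, so their counts are no test of genotype. The covariate of epidermal level and the fit of 6 libraries were chosen after seeing the data. Over all genes, 870 passed. This count was 1360 with the likelihood ratio test, 1766 with DESeq2, 448 at an FDR under 0.05, 27 with Xist, 45 with choroid plexus and 176 with epidermal level as covariate, and 130 in the 6 libraries. It was 451 to 1059 when 1 embryo was left out, lowest without Lmx1a-/- embryo 4 and also lower without wild-type embryos 1 (504) and 2 (551) and Lmx1a-/- embryos 2 (578) and 5 (546).

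Signs turned only for genes and ratios that did not pass. Lama3 was at a log2 fold change of 0.047 with Xist and 0.30 with epidermal level as covariate, Lamb3 at 0.30 with epidermal level, and Lama4 at 0.10 with endothelial and 0.060 with meningeal level. With 1 embryo left out, Lama4 ranged from -0.37 to 0.10, and the log2 differences of Lama1/Lamc1 from -0.18 to 0.017, Lama2/Lamc1 from -0.35 to 0.030 and Lama5/Lamc1 from -0.30 to 0.015. None of the 7 ratios passed under any alternative (2 had an unadjusted exact p under 0.05 in the main test). The design nearly fixed that outcome. Leaving out 1 embryo raises the smallest possible exact p above 0.00794, where a single ratio already had an adjusted p of 0.0556. The choice of length cancels in the difference between genotypes. These alternatives therefore do not show that the ratios were unchanged. The cause of the turned signs was not tested.

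Embryo numbers did not pair the libraries (correlations of deviations -0.0986 to 0.0133). With a replicate block 601 genes and 3 laminin chain genes passed, Lamc3 (FDR 0.136), Itga6 (0.152) and Calr (0.113) did not, and the sign-flip test of ratios, which cannot go below 0.0625, passed 0. Lama3 and Lamb3 had as few as 4 and 5 counts in a library, which limits what could be detected for them.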
